A study of Mus musculus with 12 samples.

Results

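The TNF receptor and ligand superfamily was followed through 9 of its genes, taken by symbol from a table of 38739 genes. All 9 were listed: the receptors Tnfrsf1a, Tnfrsf1b, Tnfrsf9, Tnfrsf14 and Ltbr, and the ligands Tnfsf4, Tnfsf10, Tnfsf12 and Tnfsf15. The samples were bone marrow-derived macrophages (BMDMs) of C57BL/6J background from wild-type (WT) mice and from mice that lack cyclic GMP-AMP synthase (cGAS-/-), left untreated (UT) or stimulated with lipopolysaccharide (LPS), a component of the bacterial outer membrane. RNA was sequenced in 12 samples, 3 for each treatment within each genotype, referred to as cGAS-/- LPS, cGAS-/- UT, WT LPS and WT UT. The cGAS deletion is carried by all cells of the mouse, so the macrophages also differentiated without it. The labels give LPS at 100 ng/mL for 1 h, whereas the methods of the study give a higher dose for a much longer time, and the exposure is therefore uncertain. The labels also name neutrophils as the source of the extracted RNA, unlike the rest of the labels and the methods. The samples of a group are called technical replicates in the study, so p-values measure only the spread between these samples.

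Receptors of this family carry signals from trimeric ligands on the surface of, or shed from, neighbouring cells. Tnfrsf1a (TNFR1) has a death domain and can lead to NF-κB activity, apoptosis or necroptosis, while Tnfrsf1b (TNFR2) recruits TRAF adaptors directly. Ltbr, the lymphotoxin beta receptor, drives the non-canonical NF-κB pathway, Tnfrsf14 (HVEM) binds LIGHT and BTLA, and Tnfrsf9 (4-1BB) is a co-stimulatory receptor. Among the ligands, Tnfsf10 (TRAIL) triggers apoptosis through death receptors and is an interferon-inducible gene, Tnfsf12 (TWEAK) signals through Fn14, Tnfsf4 (OX40 ligand) co-stimulates T cells, and Tnfsf15 (TL1A) binds death receptor 3. In macrophages LPS acts through TLR4, which leads to both NF-κB and interferon signalling. Tnf, Lta and Ltb were not analysed here, because the table stops on chromosome 13.

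On GRCm39, 4 of the members lie on chromosome 4, namely Tnfsf15 (chr4:63642840-63663442, minus strand), Tnfrsf1b (chr4:144938938-144973477, minus strand), Tnfrsf9 (chr4:150999019-151030559, plus strand) and Tnfrsf14 (chr4:155005126-155013020, minus strand). Ltbr (chr6:125283534-125290886, minus strand) and Tnfrsf1a (chr6:125325566-125339632, plus strand) are neighbours on chromosome 6. The others are Tnfsf4 (chr1:161222980-161245981, plus strand), Tnfsf10 (chr3:27371033-27396576, plus strand) and Tnfsf12 (chr11:69577076-69586928, minus strand). Tnfsf12 is the member whose reads are hardest to assign. The read-through gene Tnfsfm13 overlaps it on the same strand over 9849 bp, 52.2% of the 31-base words of the Tnfsf12 transcripts also occur in other genes, and 49.6% occur in Tnfsfm13. For Tnfrsf14 that share is 18.3%, spread over many genes, and for each of the other members it is 5.1% or less.

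The start-site regions of 4 members are shown, since Tnfrsf1b and Tnfrsf14 moved together in the samples, Tnfsf10 had the largest change with LPS in WT cells, and Tnfrsf1a was not called in any comparison on the values as deposited. Each is the RefSeq sequence on GRCm38.p6 from 250 bases before to 50 bases after the annotated start, read along the strand of the gene. Capitals mark matches, on either strand, to an interferon-stimulated response element (ISRE, searched as GAAA, any 2 bases, GAAA), an AP-1 site (TGANTCA) or a κB site.
Tnfrsf1b, chr4:145246821-145247120, minus strand: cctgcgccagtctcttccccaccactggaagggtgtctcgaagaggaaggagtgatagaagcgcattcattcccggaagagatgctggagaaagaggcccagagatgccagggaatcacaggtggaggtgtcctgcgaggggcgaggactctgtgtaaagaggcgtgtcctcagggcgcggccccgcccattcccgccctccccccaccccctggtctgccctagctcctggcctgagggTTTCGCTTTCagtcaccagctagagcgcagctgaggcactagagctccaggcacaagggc
Tnfrsf14, chr4:154928028-154928327, minus strand: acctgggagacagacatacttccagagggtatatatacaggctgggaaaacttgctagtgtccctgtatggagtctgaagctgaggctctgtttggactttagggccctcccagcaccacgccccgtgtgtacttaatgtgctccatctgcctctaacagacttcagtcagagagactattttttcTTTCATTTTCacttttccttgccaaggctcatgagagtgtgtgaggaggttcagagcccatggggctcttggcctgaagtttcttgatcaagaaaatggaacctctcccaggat
Tnfsf10, chr3:27316827-27317126, plus strand: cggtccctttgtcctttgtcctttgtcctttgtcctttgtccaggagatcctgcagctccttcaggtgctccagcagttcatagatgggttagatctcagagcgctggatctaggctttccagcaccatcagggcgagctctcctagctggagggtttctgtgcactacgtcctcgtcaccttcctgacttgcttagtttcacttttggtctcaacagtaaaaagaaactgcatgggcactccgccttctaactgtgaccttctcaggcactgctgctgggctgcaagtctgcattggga
Tnfrsf1a, chr6:125349473-125349772, plus strand: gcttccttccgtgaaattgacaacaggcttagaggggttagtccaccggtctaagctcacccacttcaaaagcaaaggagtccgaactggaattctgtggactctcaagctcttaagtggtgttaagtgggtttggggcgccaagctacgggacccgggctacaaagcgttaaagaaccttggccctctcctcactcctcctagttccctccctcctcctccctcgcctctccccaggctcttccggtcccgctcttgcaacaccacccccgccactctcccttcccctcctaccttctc
Counted from the start site as 0, the ISRE letters lie at -10 to -1 in Tnfrsf1b and at -64 to -55 in Tnfrsf14, both on the strand opposite to the gene. Of 32851 such regions in the RefSeq table, 3.44% hold the ISRE letters, 4.51% a κB match and 7.81% an AP-1 match. The windows of Tnfsf10 and Tnfrsf1a hold none of the 3 motifs, nor do those of Ltbr and Tnfsf15. Of the 2 listed starts of Tnfrsf9, one holds overlapping κB matches from -43 to -33 and an AP-1 match from -15 to -9, and the other holds none. In all, 7 of the 9 members had an entry, the others being Tnfsf4 and Tnfsf12. A match of letters is a description of the window and not evidence of binding.

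Levels are given in TPM (transcript abundance corrected for length), taken as averages over the transcripts of a gene, and the depth of sequencing is unknown. Library totals ranged from 447189 to 503156 TPM apart from WT LPS replicate 3, which reached 709802 TPM. There, a ferritin pseudogene (Fth-ps3) made up 31.7% and all protein-coding genes only 18.5%, while elsewhere the protein-coding share was 39.7% to 54.4%. Cgas, the deleted gene, lay between 1.19 and 3.25 TPM in WT and between 0.0703 and 0.291 TPM in cGAS-/- samples. All 8 listed macrophage markers were above the filter. Their summed level ran from 20228 to 21204 TPM in WT UT and from 24025 to 25737 TPM in cGAS-/- UT. With LPS it ran from 19791 to 29777 TPM in WT LPS and from 35675 to 36052 TPM in cGAS-/- LPS. Lyz2 made up most of these sums, and Ctss and Mrc1 were lower in cGAS-/- LPS, at 1793 to 1919 TPM and 0.857 to 1.10 TPM against 2872 to 3662 TPM and 3.85 to 10.9 TPM in WT LPS. Mrc1 was also lower in cGAS-/- UT, at 23.5 to 25.6 TPM against 73.4 to 85.2 TPM in WT UT. Itgam lay at 141 to 144 TPM in cGAS-/- LPS, within the 37.1 to 157 TPM of WT LPS. All 12 T and NK cell markers were below 1 TPM in every sample. Summed neutrophil markers ranged from 139 to 214 TPM in WT UT, 53.3 to 126 TPM in cGAS-/- UT, 35.9 to 353 TPM in WT LPS and 46.5 to 60.3 TPM in cGAS-/- LPS, most of it S100a8 and S100a9, with Mpo, Elane, Cxcr2 and Prtn3 below 1 TPM throughout. Summed B cell markers were 37.5 to 45.8 TPM in WT UT, 16.6 to 21.8 TPM in cGAS-/- UT, 3.51 to 9.03 TPM in WT LPS and 1.29 to 2.27 TPM in cGAS-/- LPS. Ighm made up most of these sums in untreated cells, whereas Cd79a lay at 1.55, 0.132 and 0.421 TPM in WT UT at 1.54, 1.71 and 2.49 TPM in WT LPS, at 0.451, 0.361 and 0.392 TPM in cGAS-/- UT and at 0.408, 0.178 and 0.0705 TPM in cGAS-/- LPS, with Pax5, Ebf1 and Fcrla below 1 TPM throughout. Endothelial and fibroblast markers summed to 8.005 to 10.6 TPM in WT UT, 7.72 to 20.7 TPM in WT LPS, 3.25 to 5.42 TPM in cGAS-/- UT and 4.57 to 5.72 TPM in cGAS-/- LPS. Dendritic cell markers were at 8.44 to 8.98 TPM in WT UT and 5.34 to 7.06 TPM in cGAS-/- UT against 2.48 to 2.92 TPM and 2.54 to 3.24 TPM with LPS, and erythroid markers at 1.56 to 37.4 TPM, the highest in WT LPS replicate 1. The part of these cells in the members' values was not tested, and in bulk RNA fewer cells of a type and less RNA per cell cannot be told apart.

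Changes were tested with limma on log2(TPM + 1) over 11887 genes with at least 1 TPM, after rescaling for the filter, in at least 3 of 12 samples, and genes with a Benjamini-Hochberg adjusted p under 0.05 over all of them were called. Tested members numbered 7, and Tnfrsf9 and Tnfsf15 were below the filter. Log2 changes below are on the log2(TPM + 1) scale, which understates the change of low genes. The spread behind each standard error (SE) was estimated over all 12 samples together. The WT LPS samples therefore also bear on comparisons without them. Among called members, LPS raised Tnfsf10 and lowered Tnfsf12 in WT cells, and raised Tnfrsf1b and Tnfrsf14 and lowered Tnfsf12 in cGAS-/- cells. Tnfsf10 was not called in cGAS-/- cells, although its LPS samples there lay above its untreated ones. Between genotypes, the called member was Tnfsf10, lower in cGAS-/- cells under LPS.

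**Figure D1:**
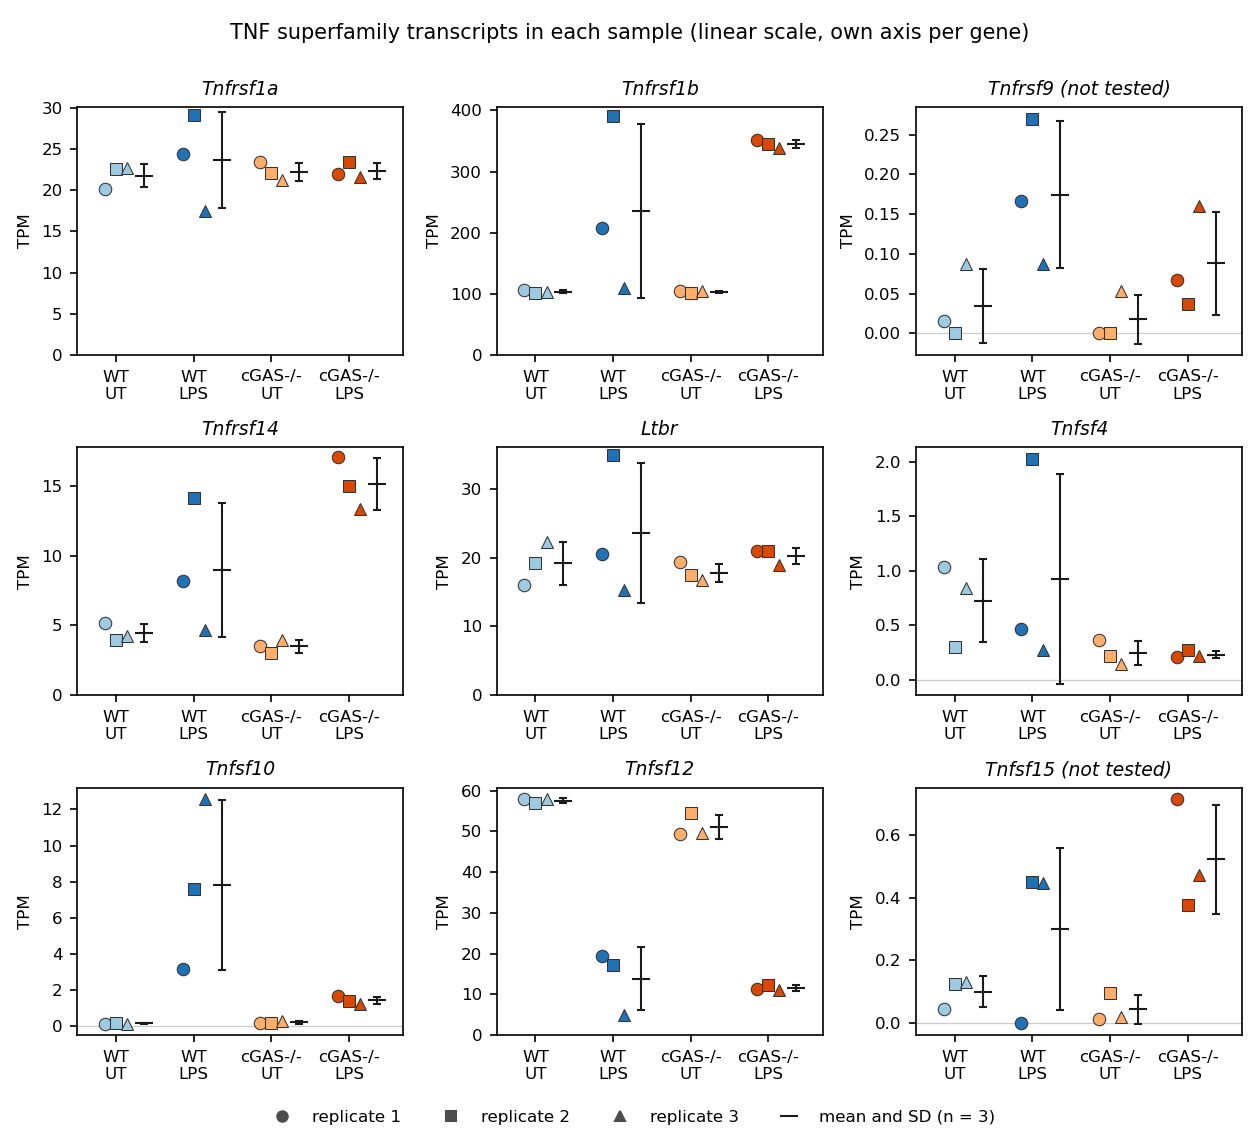
Level of each of the 9 members in each of the 12 samples, in TPM on linear axes that differ between genes, with points for samples, symbols for replicate numbers, and bars for the mean and SD of the 3 samples. In WT LPS the 3 points of Tnfrsf1b run from 110 to 390 TPM, whereas in cGAS-/- LPS they lie between 339 and 351 TPM.

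Tnfrsf1b was the member with the highest values. It lay at 106, 102 and 103 TPM in WT UT and at 104, 101 and 104 TPM in cGAS-/- UT. With LPS it reached 207, 390 and 110 TPM in WT replicates 1, 2 and 3, and 351, 344 and 339 TPM in cGAS-/- cells. The untreated groups overlapped, all LPS samples were above all untreated samples, and the WT LPS range enclosed that of cGAS-/- LPS. In cGAS-/- cells the rise was 1.74 on the log2 scale (SE 0.36, adjusted p = 0.00807), a 3.33-fold increase. In WT cells the change was 1.00 (SE 0.36, adjusted p = 0.062), which did not pass the threshold but did with trimmed mean factors (1.65, adjusted p = 0.000302), a scaling described below. Under LPS the difference of cGAS-/- from WT was 0.73 (SE 0.36, adjusted p = 0.299).

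Tnfrsf14 was lower in level and followed a similar course. Its values were 5.16, 3.93 and 4.27 TPM in WT UT and 3.55, 3.02 and 3.96 TPM in cGAS-/- UT. With LPS they were 8.16, 14.2 and 4.64 TPM in WT cells and 17.1, 15.0 and 13.4 TPM in cGAS-/- cells. WT LPS replicate 3 lay within the range of the untreated WT samples, while the cGAS-/- LPS samples lay above every untreated sample. The rise in cGAS-/- cells was 1.84 (SE 0.31, adjusted p = 0.00227), a 3.58-fold increase with 1 TPM added, and the change in WT cells was 0.76 (SE 0.31, adjusted p = 0.0892), or 1.32 with trimmed mean factors (adjusted p = 0.000638). Under LPS the genotypes differed by 0.80 (SE 0.31, adjusted p = 0.215). The difference of the LPS effect between genotypes was 1.08 (SE 0.44, unadjusted p = 0.0335, adjusted p = 0.405).

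Tnfrsf1a and Ltbr changed little. Tnfrsf1a had group means of 21.8 ± 1.42 TPM in WT UT, 23.7 ± 5.81 TPM in WT LPS, 22.2 ± 1.10 TPM in cGAS-/- UT and 22.3 ± 0.979 TPM in cGAS-/- LPS (SD, n = 3 each). Ltbr had 19.2 ± 3.10 TPM in WT UT, 23.7 ± 10.2 TPM in WT LPS, 17.8 ± 1.32 TPM in cGAS-/- UT and 20.3 ± 1.14 TPM in cGAS-/- LPS (SD, n = 3 each). For both genes all 4 groups overlapped with their neighbours in order of mean. Their log2 changes with LPS were 0.09 and 0.22 in WT cells and 0.01 and 0.18 in cGAS-/- cells, each with an adjusted p of 0.571 or more. The median of all tested genes, however, moved by -0.46 with LPS in WT and by -0.20 in cGAS-/- cells, and by -0.11 and 0.0023 with trimmed mean factors, which scale the samples on genes of ordinary change. Relative to it, Tnfrsf1a changed by 0.55 and Ltbr by 0.68 in WT cells. With these factors the WT changes were 0.71 for Tnfrsf1a (adjusted p = 0.00822) and 0.84 for Ltbr (adjusted p = 0.00751). Whether these 2 receptors stayed level or rose in WT cells therefore depends on the scaling.

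Tnfrsf9 was near the floor. It read 0.015, 0 and 0.087 TPM in WT UT, 0.167, 0.270 and 0.087 TPM in WT LPS, 0, 0 and 0.053 TPM in cGAS-/- UT and 0.067, 0.037 and 0.160 TPM in cGAS-/- LPS. Without the filter, its lowest adjusted p among the comparisons was 0.101, for LPS in WT cells.

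Tnfsf10 was low in untreated cells and rose with LPS in WT cells. It lay at 0.141, 0.178 and 0.133 TPM in WT UT and at 0.195, 0.155 and 0.286 TPM in cGAS-/- UT. With LPS it reached 3.19, 7.61 and 12.6 TPM in WT and 1.64, 1.42 and 1.22 TPM in cGAS-/- cells. The 4 groups separated except for the untreated pair, and WT LPS replicate 3, the lowest of its group for most members, was the highest for this gene. In WT cells the rise was 2.78 (SE 0.33, adjusted p = 0.000181), a 6.85-fold increase on the scale with 1 TPM added. In cGAS-/- cells the change was 1.00 (SE 0.33, adjusted p = 0.0716), and with 0.1 TPM added in place of 1 it was 2.30 (adjusted p = 0.00699). With only the samples compared, the same change of 1.00 had an SE of 0.10 and was called (adjusted p = 0.000627). The change in cGAS-/- cells was called in 6 of 24 alternatives, with adjusted p from 1.85e-05 to 0.389 over all of them. Under LPS, cGAS-/- cells were lower by -1.70 (SE 0.33, adjusted p = 0.023), which is 0.307 of the WT level on the scale with 1 TPM added, while the group means were 1.43 ± 0.210 TPM and 7.79 ± 4.70 TPM (SD, n = 3 each). The call between genotypes was lost when any 1 of the cGAS-/- LPS samples was left out, with adjusted p of 0.0885, 0.0929 and 0.107, and also with no filter, with sample weights and with only the samples compared. The difference of the LPS effect was -1.78 (SE 0.47, unadjusted p = 0.0029, adjusted p = 0.139), -2.23 without WT LPS replicate 1 (adjusted p = 0.00464) and -1.38 without WT LPS replicate 3 (adjusted p = 0.0504). It was called in 1 of 23 alternatives.

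Tnfsf12 fell with LPS in both genotypes. It lay at 57.9, 57.0 and 57.9 TPM in WT UT and 49.4, 54.6 and 49.6 TPM in cGAS-/- UT. After LPS the values were 19.3, 17.2 and 5.05 TPM in WT and 11.2, 12.3 and 11.1 TPM in cGAS-/- cells. Every LPS sample was below every untreated sample. The change was -2.16 (SE 0.39, adjusted p = 0.00227) in WT and -2.06 (SE 0.39, adjusted p = 0.00411) in cGAS-/- cells, or 0.223 and 0.241 of the untreated level on the same scale. With only the samples compared, the WT call was lost (adjusted p = 0.0613). The genotypes differed by -0.17 in UT (adjusted p = 1) and by -0.06 under LPS (adjusted p = 0.947), although the untreated ranges did not overlap. Tnfsfm13, which shares its sequence, fell too, from 22.1 to 25.4 TPM in WT UT to between 2.49 and 6.39 TPM in WT LPS, and from 14.4 to 18.6 TPM to between 1.16 and 3.06 TPM in cGAS-/- cells.

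Tnfsf4 was barely above the filter and no comparison called it. Its values were 1.04, 0.302 and 0.838 TPM in WT UT, 0.471, 2.03 and 0.277 TPM in WT LPS, 0.364, 0.221 and 0.150 TPM in cGAS-/- UT and 0.208, 0.272 and 0.216 TPM in cGAS-/- LPS. Under LPS its log2 difference between genotypes was -0.53 (SE 0.29, adjusted p = 0.333), and -0.15 without WT LPS replicate 2. Tnfsf15 was below the filter, with 0.043, 0.125 and 0.132 TPM in WT UT, 0, 0.450 and 0.447 TPM in WT LPS, 0.013, 0.097 and 0.020 TPM in cGAS-/- UT and 0.717, 0.378 and 0.474 TPM in cGAS-/- LPS. Without the filter, its change with LPS in cGAS-/- cells was 0.54 (adjusted p = 0.0606). The antisense gene Gm11482 lies across it over 20503 bp.

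**Figure D2:**
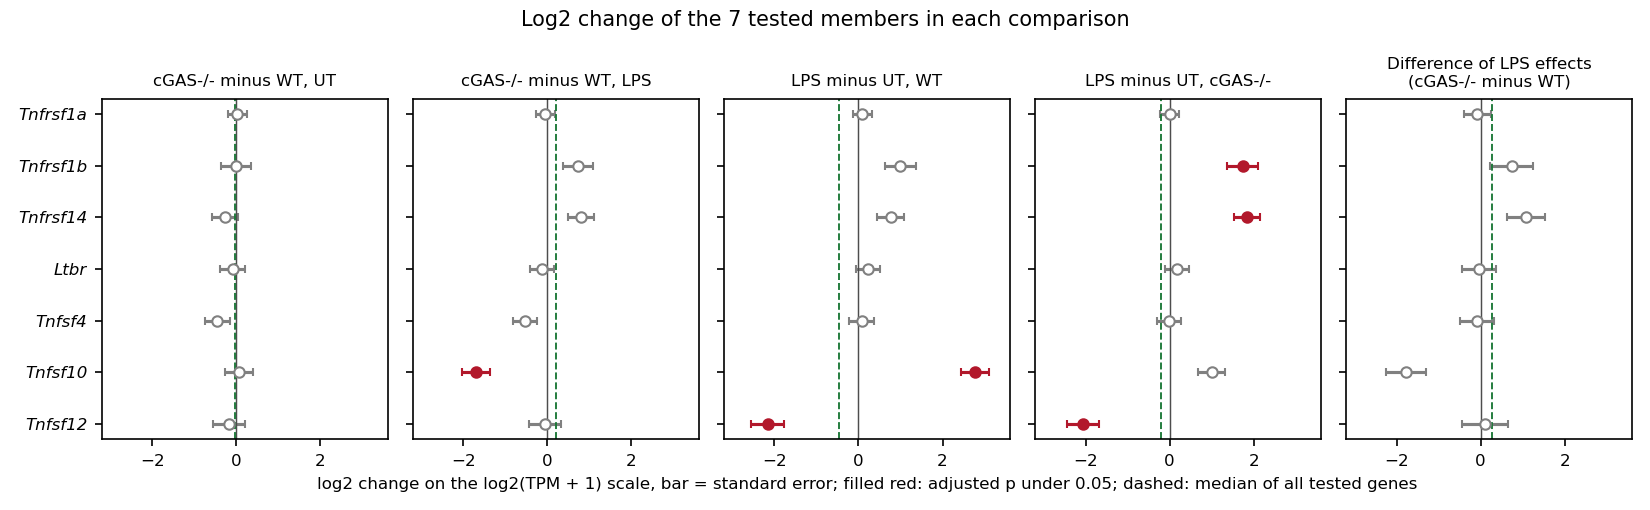
Log2 change with its standard error for the 7 tested members in each comparison, on the log2(TPM + 1) scale, with filled red points for an adjusted p under 0.05 and a dashed line at the median of all tested genes. The filled points are Tnfsf10 and Tnfsf12 for LPS in WT, Tnfrsf1b, Tnfrsf14 and Tnfsf12 for LPS in cGAS-/-, and Tnfsf10 for the genotypes under LPS.

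In untreated cells limma called 0 of 7 tested members between cGAS-/- and WT, and 0 had an unadjusted p under 0.05, where 1.83% and 8.08% of all tested genes did. Under LPS, 1 of 7 was called between genotypes and 2 had an unadjusted p under 0.05, where 2.36% and 18.8% of all genes did. LPS called 1 member higher and 1 lower in WT cells, where the call rate over all genes was 27.6%, with 4.31% higher and 23.3% lower. In cGAS-/- cells 2 members were higher and 1 lower, where the rate was 13.8%, with 4.76% higher and 9.06% lower. For the difference of the LPS effect between genotypes limma called 0 of 7 members, with 2 at an unadjusted p under 0.05, where 0.9% and 11.1% of all genes did. The LPS effects on Tnfrsf1b and Tnfrsf14, called in cGAS-/- and not in WT cells, are thus not shown to differ between genotypes. The study also asked for a log2 fold change beyond 2, which left Tnfsf10 and Tnfsf12 in WT (4.32% of all genes), Tnfsf12 in cGAS-/- cells (3.5%), and no member for the genotypes in UT (0.37%), under LPS (0.614%) or for the difference of the LPS effect (0.404%). These comparisons share samples with one another, so their values stand side by side and not as separate evidence.

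The WT LPS samples spread more widely than those of the other groups, with an SD of 142 TPM for Tnfrsf1b against 6.03 TPM or less elsewhere. Of the 9 members, 7 had their highest WT LPS value in replicate 2 and 7 their lowest in replicate 3. Over all tested genes, 55.2% were highest in replicate 2 and 57.4% lowest in replicate 3. With trimmed mean factors 5 members and 47.7% of tested genes were lowest in replicate 3. Without WT LPS replicate 2, the difference between genotypes under LPS was 1.18 for Tnfrsf1b (adjusted p = 0.00798) and 1.16 for Tnfrsf14 (adjusted p = 0.0069), the changes with LPS in WT cells were 0.54 (adjusted p = 0.0891) and 0.41 (adjusted p = 0.169), and the difference of the LPS effect was 1.19 (adjusted p = 0.0432) and 1.44 (adjusted p = 0.0221). Without WT LPS replicate 3, the same genotype differences were 0.28 and 0.45, and the rises with LPS in WT cells were 1.45 for Tnfrsf1b (adjusted p = 0.00049) and 1.12 for Tnfrsf14 (adjusted p = 0.00304). Tnfsf12 was then lower in cGAS-/- cells under LPS by -0.62 (adjusted p = 0.00492). Leaving out WT LPS replicate 2 also raised the calls between genotypes under LPS over all tested genes, from 281 to 3312 of 11887. For the difference of the LPS effect they rose from 107 to 1496. Whether Tnfrsf1b and Tnfrsf14 differ between genotypes under LPS thus rests on which WT LPS samples are counted.

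**Figure D3:**
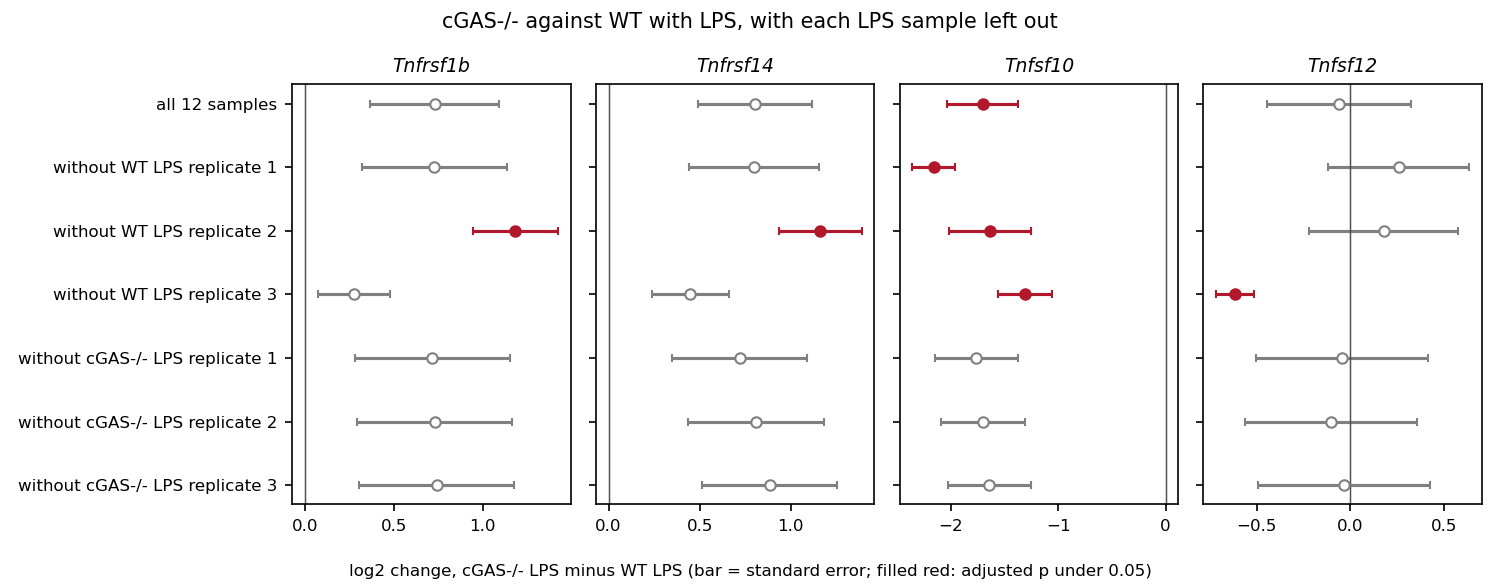
Log2 difference of cGAS-/- from WT under LPS for Tnfrsf1b, Tnfrsf14, Tnfsf10 and Tnfsf12, with all samples and with each LPS sample left out in turn, on the log2(TPM + 1) scale, with bars for the standard error and filled red points for an adjusted p under 0.05. Tnfrsf1b moves from 0.28 without WT LPS replicate 3 to 1.18 without WT LPS replicate 2.

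Ratios of members within a sample do not depend on the scaling of that sample, and were added after the data had been seen. The ratio of Tnfrsf1b to Tnfrsf1a was 5.26, 4.52 and 4.52 in WT UT and 4.44, 4.57 and 4.89 in cGAS-/- UT. With LPS it was 8.50, 13.4 and 6.28 in WT and 16.0, 14.7 and 15.7 in cGAS-/- cells. So the ratio rose in every LPS sample of both genotypes, and the cGAS-/- LPS samples lay above the WT LPS samples, with a log2 difference of 0.79. The ratio of Tnfrsf14 to Ltbr was 0.322, 0.204 and 0.192 in WT UT, 0.396, 0.404 and 0.303 in WT LPS, 0.184, 0.173 and 0.236 in cGAS-/- UT and 0.816, 0.716 and 0.706 in cGAS-/- LPS. Here too the cGAS-/- LPS samples were above all others, by 1.03 on the log2 scale over WT LPS. The ratio of Tnfsf10 to Tnfsf12 went the other way between genotypes, with 0.165, 0.443 and 2.49 in WT LPS against 0.146, 0.115 and 0.110 in cGAS-/- LPS, a log2 difference of -2.21, and of -1.14 without WT LPS replicate 3. In untreated cells this ratio was 0.00244, 0.00312 and 0.00230 in WT and 0.00395, 0.00285 and 0.00576 in cGAS-/- samples. Each of these 3 genotype differences under LPS had a p of 0.1 in a two-sided exact permutation test, the smallest that 3 against 3 samples allow.

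**Figure D4:**
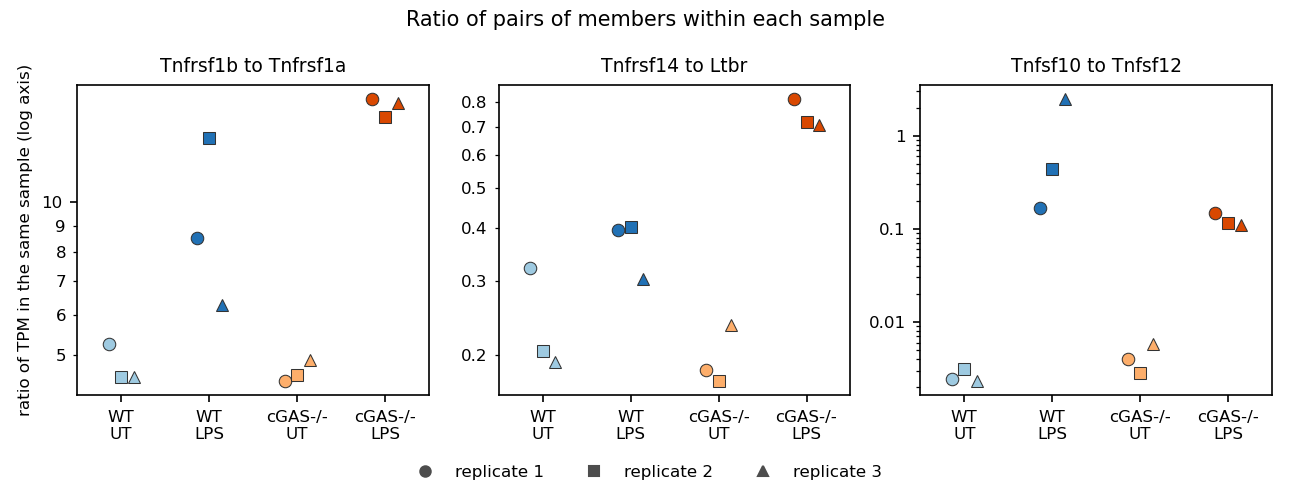
Ratio of TPM between pairs of members within each sample, on log axes, with 1 panel for each pair and symbols for replicate numbers. The cGAS-/- LPS samples lie above the WT LPS samples for Tnfrsf1b to Tnfrsf1a and for Tnfrsf14 to Ltbr, and below them for Tnfsf10 to Tnfsf12.

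Among the other genes of the superfamily, 18 of 37 were listed and 10 tested. LPS raised Tnfrsf8 (CD30) and Cd40, a co-stimulatory receptor, in both genotypes, by 1.25 and 1.33 in WT (adjusted p = 0.000633 and 0.0205) and by 0.81 and 1.87 in cGAS-/- cells (adjusted p = 0.0111 and 0.00517). Tnfsf13 (APRIL), the ligand next to Tnfsf12, fell by 2.67 in WT (adjusted p = 0.00408) and by 3.18 in cGAS-/- cells (adjusted p = 0.00178), and it is part of the Tnfsfm13 read-through. Tnfrsf13b (TACI), an APRIL receptor, fell by 1.07 in WT cells (adjusted p = 0.0391). That made 4 of 10 called in WT, beside 27.6% of all genes, and 3 of 10 in cGAS-/- cells, beside 13.8%. Between genotypes limma called 0 of 10, with 1 at an unadjusted p under 0.05 in UT and 4 under LPS, where 8.08% and 18.8% of all genes were.

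Genes linked to signalling by these receptors were listed by role, and 53 of 72 were tested. These lists, called signalling genes here, also hold genes of shedding and cleavage and genes that TNF induces. LPS called 11 higher and 3 lower in WT cells, or 26.4%, and 17 higher and 1 lower in cGAS-/- cells, or 34%. Over all genes 27.6% were called in WT, close to the share of the list, and 13.8% in cGAS-/- cells. Higher calls alone took 4.31% and 4.76% of all genes. With trimmed mean factors, limma called 16 signalling genes higher against 3 lower for WT and 21 against 0 for cGAS-/- cells, where 883 genes in all were higher against 1434 lower and 828 against 783. Their median change was -0.34 in WT and 0.15 in cGAS-/- cells, beside medians of -0.46 and -0.20 over all tested genes. Of 12 adaptors and ubiquitin ligases, Traf1 rose by 1.76 and 2.93 in WT and cGAS-/- cells, Birc3 (cIAP2) by 0.90 and 2.41, and Traf2 by 1.35 and 1.14, while Traf5 fell by 1.03 in WT and Tank rose by 1.34 in cGAS-/- cells. Of 9 feedback inhibitors, 3 rose in WT and 5 in cGAS-/- cells. Nfkbia, which holds NF-κB in the cytoplasm, rose by 1.87 and 2.73, and Tnfaip3 (A20), a ubiquitin-editing enzyme, by 1.11 and 1.35. Of 6 death signalling genes, Cflar (c-FLIP), an inhibitor of caspase-8, rose by 1.43 and 1.53, and Mlkl, the effector of necroptosis, by 2.27 and 2.50. Of 10 kinases, Ikbke rose by 1.17 and 2.29, while Map3k14 (NIK) and Map3k5 fell by 1.30 and 0.85 in WT cells. Of the 6 listed NF-κB factors, Rela and Nfkb2 had no entry. Of the other 4, 0 passed limma in WT cells, with 0 at an unadjusted p under 0.05, and Bcl3 rose by 1.63 in cGAS-/- cells. Of 6 genes of shedding and cleavage, Rhbdf2, a partner of the TNF sheddase, rose by 1.47 and Adam10 fell by 1.02 in cGAS-/- cells. Of 6 TNF-induced genes, Ccl2 rose by 4.06 and 5.56 and the adhesion molecule Icam1 by 1.37 and 2.66, and Vcam1 rose by 1.58 in cGAS-/- cells.

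Between genotypes, 3 of 53 signalling genes, or 5.66%, were called under LPS beside 2.36% of all genes, and all were higher in cGAS-/- cells. These were Map3k5 (ASK1) by 0.96 (adjusted p = 0.0212), Tnfaip2 by 1.62 (adjusted p = 0.0401) and Birc3 by 1.13 (adjusted p = 0.0493). The median of all tested genes was itself higher in cGAS-/- cells under LPS, by 0.20. With trimmed mean factors, limma called 6 signalling genes higher and 1 lower in this comparison, where 317 genes in all were higher and 191 lower. In UT cells 1 signalling gene was called, Ccl2, a monocyte chemokine that TNF induces, which lay at 21.9, 25.4 and 23.9 TPM in WT and at 1.95, 2.70 and 1.61 TPM in cGAS-/- cells, a difference of -3.02 (adjusted p = 0.00414). Under LPS it stayed lower in cGAS-/- cells despite its larger rise there, at 146, 140 and 142 TPM against 722, 555 and 171 TPM in WT. That difference was -1.51 (adjusted p = 0.116). For the difference of the LPS effect limma called 0 of 53, with 15 at an unadjusted p under 0.05, where 11.1% of all genes were. The count under LPS stayed within 1.5 times in 5 of 25 alternatives and ran from 0 to 29. Leaving out WT LPS replicate 2 raised these counts to 29 under LPS and 18 for the difference of the LPS effect, where all genes called rose to 3312 and 1496 of 11887, leaving out replicate 3 gave 7 and 4, and leaving out any 1 cGAS-/- LPS sample gave 0 under LPS.

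**Figure D5:**
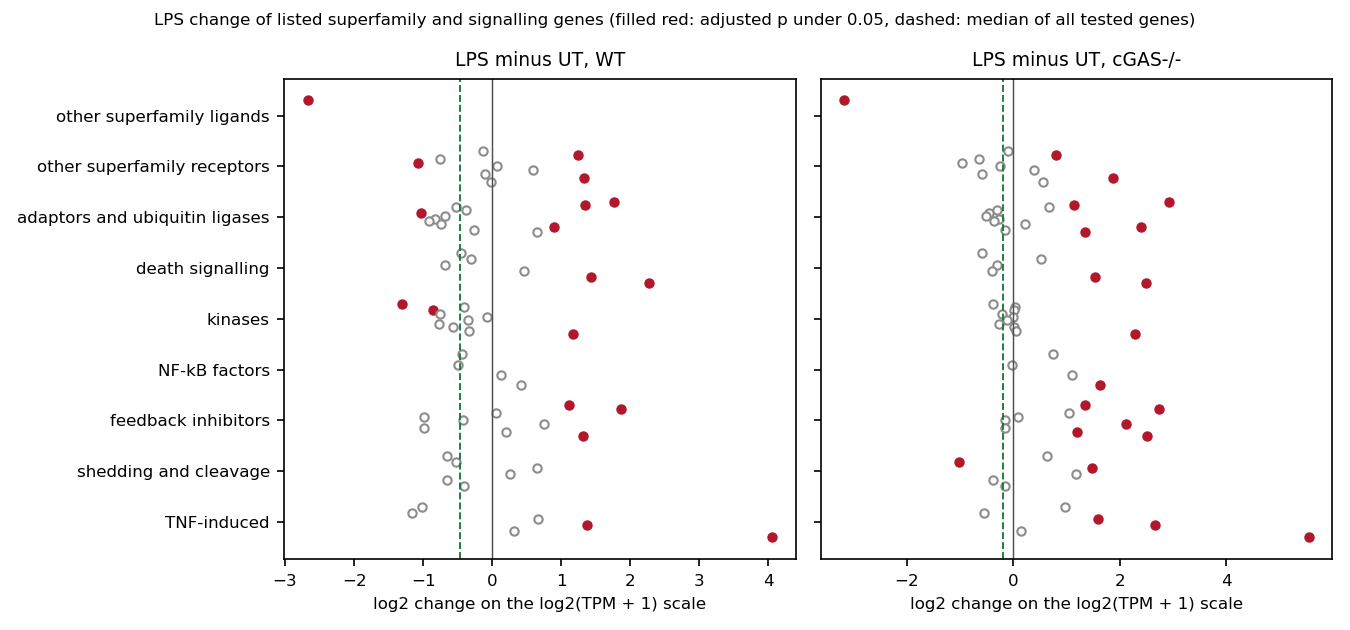
Log2 change with LPS in WT and in cGAS-/- cells for the tested genes of each list, on the log2(TPM + 1) scale, where filled red points have an adjusted p under 0.05, open points do not, and the dashed line is the median of all tested genes. In both genotypes most filled points lie to the side of higher values, with 11 of 14 in WT and 17 of 18 in cGAS-/- cells among the signalling genes, whereas over all tested genes on the deposited scale 2774 lower calls stood against 512 higher ones for WT and 1077 against 566 for cGAS-/- cells.

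The genes whose centred log2 values lay closest to those of a member over the 12 samples were found by the root mean square difference. Closest to Tnfrsf1b were Itgam (0.115), Pde4b (0.148) and Tnfrsf14 (0.161), where Tnfrsf1b itself had a root mean square of 0.819 around its mean. Closest to Tnfrsf14 were Tnfrsf1b (0.161), Nadk (0.166) and Tnip1 (0.190). For Tnfsf10 the closest genes, Parp3 (0.354), Pml (0.355) and Sp140 (0.364), were farther away. For Tnfsf12 they were Lat2 (0.142), Cd300a (0.146) and Gm43606 (0.183). These distances are over samples that share the treatment and the library composition, and are a description only.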

How the data were processed

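RNA-seq of 12 BMDM samples was mapped to GRCm39 with STAR and quantified with Kallisto by the authors, after trimming with fastp, and their group comparisons used edgeR and limma. In the 1 table that the authors deposited, each value was read as a mean TPM of the transcripts under a gene symbol, a unit inferred from the values. Depth is not known, so no counting interval is given.

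Values were taken as log2(TPM + 1). For filtering, each sample was rescaled to a total of 1000000, and the 11887 genes that reached 1 in 3 or more of the 12 samples were tested on the values as deposited. Limma 3.58.1 in R 4.3.3, with a variance trend and 1 mean for each group, gave all tests, adjusted by Benjamini-Hochberg over these genes. The fit was tested on simulated data with the same spread of a gene in every group. That test cannot show how the fit handles the wider spread of the WT LPS samples. Members, gene lists and markers were chosen with earlier results of these data known. Named genes are the members, Cgas, listed genes with an adjusted p under 0.05 (at most 4 with values for each list and comparison), and the 3 genes closest to each member whose group means span over 1. Tnfsfm13, Fth-ps3 and Gm11482 were named after their values were seen. One marker gene is not reported here. Shared sequence was counted in 31-base words of GENCODE vM39 transcripts. Alternatives were other pseudocounts, filters and scalings, sample weights, no trend, a replicate block, only the samples compared, both thresholds of the study, and each sample left out.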

Additional observations from a re-analysis of the deposited data

How the results depend on the processing

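The count of members called between cGAS-/- and WT cells in UT was 0 under every alternative run. Under LPS it was 1, and 0 with both thresholds of the study, with no filter, with sample weights and with only the samples compared, and 0 to 3 with 1 sample left out. For LPS in WT cells it was 2, and 6 with trimmed mean factors or quantile normalization, 4 with protein-coding genes rescaled, 3 with sample weights, 1 with only the samples compared and 2 to 4 with 1 sample left out. With trimmed mean factors, 883 of all 11887 tested genes were called higher and 1434 lower for LPS in WT cells. For LPS in cGAS-/- cells the count of members was 3, 1 with both thresholds, and 4 under 6 settings in which Tnfsf10 was called too (a pseudocount of 0.1, a common total, sample weights, only the samples compared, and without WT LPS replicate 1 or 3). For the difference of the LPS effect it was 0, and 0 to 2 with 1 sample left out. Replicate numbers did not pair the samples, since the correlation of deviations lay between -0.03 and 0.04 in 18 same-numbered pairs, and with the replicate block the counts of members were 0, 1, 2, 3 and 0. Over all alternatives, the count of all genes called ran from 44 to 1369 in UT (main 218), 5 to 3312 under LPS (281), 514 to 5785 for LPS in WT (3286), 416 to 5746 for LPS in cGAS-/- cells (1643) and 32 to 1496 for the difference (107). Signalling genes ran from 1 to 12, 0 to 29, 2 to 34, 9 to 36 and 0 to 18, and other superfamily genes from 0 to 2, 0 to 2, 1 to 6, 1 to 8 and 0 to 0 in the same order. The block moved the signalling genes called between genotypes under LPS from 3 to 0.

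Tnfrsf1b, Tnfrsf14 and Tnfsf12 with LPS in cGAS-/- cells and Tnfsf10 with LPS in WT cells were called at the adjusted p alone under all 24 alternatives that keep that threshold. Tnfsf10 between genotypes under LPS ranged from -2.17 to -0.93 and was called in 18 of 24. Tnfsf4 in the same comparison ranged from -1.22 to -0.15. Some values changed sign. In UT, Tnfrsf1a was -0.046 with a common total and -0.025 to 0.059 with 1 sample left out, Tnfrsf1b 0.063 with trimmed mean factors, 0.0497 with quantile normalization, 0.037 with protein-coding genes and -0.019 to 0.0083 with 1 left out, and Ltbr -0.21 to 0.018. Between genotypes under LPS, a common total gave 0.067 for Tnfrsf1a and 0.0400 for Tnfsf12, and leaving 1 out gave -0.25 to 0.10 for Tnfrsf1a, -0.39 to 0.18 for Ltbr and -0.62 to 0.26 for Tnfsf12. For LPS in WT, a common total gave -0.19 for Tnfrsf1a, -0.049 for Ltbr and -0.0013 for Tnfsf4, and leaving 1 out gave -0.069 to 0.28, -0.091 to 0.48 and -0.31 to 0.32. For LPS in cGAS-/- cells, Tnfrsf1a was -0.072 with a common total, -0.27 with protein-coding genes, -0.00080 with sample weights and -0.028 to 0.042 with 1 left out, Ltbr was -0.10 with protein-coding genes, and Tnfsf4 was 0.0497 with trimmed mean factors, 0.088 with quantile normalization and -0.067 to 0.056 with 1 left out. For the difference of the LPS effect, a common total gave 0.11 for Tnfrsf1a and 0.15 for Ltbr, Tnfsf12 was -0.18 with trimmed mean factors, -0.24 with quantile normalization, -0.11 with protein-coding genes and -0.38 with sample weights, and leaving 1 out gave -0.27 to 0.075 for Tnfrsf1a, -0.30 to 0.27 for Ltbr, -0.33 to 0.30 for Tnfsf4 and -0.45 to 0.43 for Tnfsf12. The cause was not tested.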
